A study of Mus musculus with 48 samples.

Results

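Mouse liver was compared between collection at 12 h and collection at 16 h, with wild type and Bmal1 knockout libraries pooled and genotype kept as a covariate. The members were all libraries whose labels give 12 or 16 h as the collection time, 8 at each time, which is 16 of the 48 libraries of the series. The whole series followed gene expression in liver by RNA sequencing every 4 h over 20 h. All mice were C57BL/6, 4 to 6 months old and male by the design text, housed in a 12 h light and 12 h dark cycle, then held in constant darkness for 36 h and killed in darkness. The knockout (KO) mice carried Bmal1 f/f alleles and Cre recombinase under the aP2 promoter. The controls, called WT in the labels, were littermates, and whether they carried the floxed alleles is not stated. At 12 h there were 4 WT and 4 KO libraries. At 16 h the labels give 5 WT and 3 KO libraries, whereas the design text gives 4 mice of each genotype. The aP2 promoter is used to drive Cre in adipocytes, and the labels give the tissue as liver and the cell type as adipocyte. Replicates are separate mice by the protocol.

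Library totals without albumin (Alb) were nearly equal, from 12841969 to 13007696 counts. Levels are given as CPM, a gene's count as a share of the library's scaled total. Summed CPM of the hepatocyte markers ran from 39988 to 61269 at 12 h and from 32020 to 49162 at 16 h. Of the 9 adipocyte markers, 5 were close to absent, with 23 counts of Adipoq, 33 of Cfd, 6 of Plin1, 4 of Retn and 2 of Lep summed over the 16 libraries. The other 4 were present, with 157862 counts of Car3, 21969 of Plin4, 3098 of Lpl and 2041 of Fabp4, the gene of aP2. The adipocyte markers summed to between 451 and 2433 CPM at 12 h and between 191 and 1658 CPM at 16 h. Every library held between 3029 and 10955 counts of Xist and none of the Y-linked genes examined, which goes against the male sex in the design text. The libraries differed in how expression depended on the GC content of transcripts, by a slope of -0.75 log2 units per 10 percentage points of GC in KO 16 h replicate 3 to 0.57 in WT 16 h replicate 4, with means of -0.08 at 12 h and 0.08 at 16 h. The first principal component held 39.5% of the variance and had the same sign as this slope in 16 of 16 libraries. KO 16 h replicate 2 stood apart in genes of fasting and insulin response. Its Igfbp1 was at 3766 CPM, against at most 311 in the other 16 h libraries and 237 in any 12 h library. The part of these differences in the results was not tested except where values without a library or with a GC correction are given.

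In the circadian clock of liver cells, BMAL1 (the product of Arntl) pairs with CLOCK or NPAS2 and activates genes with E-boxes, among them the Per and Cry genes, whose proteins then repress that same pair. The REV-ERB proteins (Nr1d1, Nr1d2) repress, and the ROR proteins activate, genes with ROR elements such as Arntl and Nfil3. DBP, TEF and HLF activate and NFIL3 represses genes with D-boxes, and these loops set the daily timing of many liver enzymes, to which feeding and body temperature add.

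Between 12 and 16 h, 39 of 13059 genes tested passed an adjusted p of 0.05 (edgeR's quasi-likelihood test with Benjamini-Hochberg adjustment, used for every adjusted p here unless another tool is named). Of these, 27 rose and 12 fell. As shares of the genes tested this was 0.299% in either direction, 0.207% that rose and 0.0919% that fell. The genes that rose included the clock repressor Cry1, the clock activator Arntl, the D-box repressor Nfil3, the chaperone Hspb1 and the drug-metabolising P450 Cyp2b10. The genes that fell included the clock gene Per3, the D-box activator Dbp, and Phka2 and Gys2, which encode a liver subunit of phosphorylase kinase and liver glycogen synthase. The median change of all genes tested was 0.03 log2 units, and 29 of the 39 called genes changed by more than 1 log2 unit. Without adjustment, 1390 genes had a p below 0.05. A correction for GC content raised the calls to 98 (0.75%), of which 55 rose and 43 fell, and 38 of the 39 genes were among them.

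**Figure D1:**
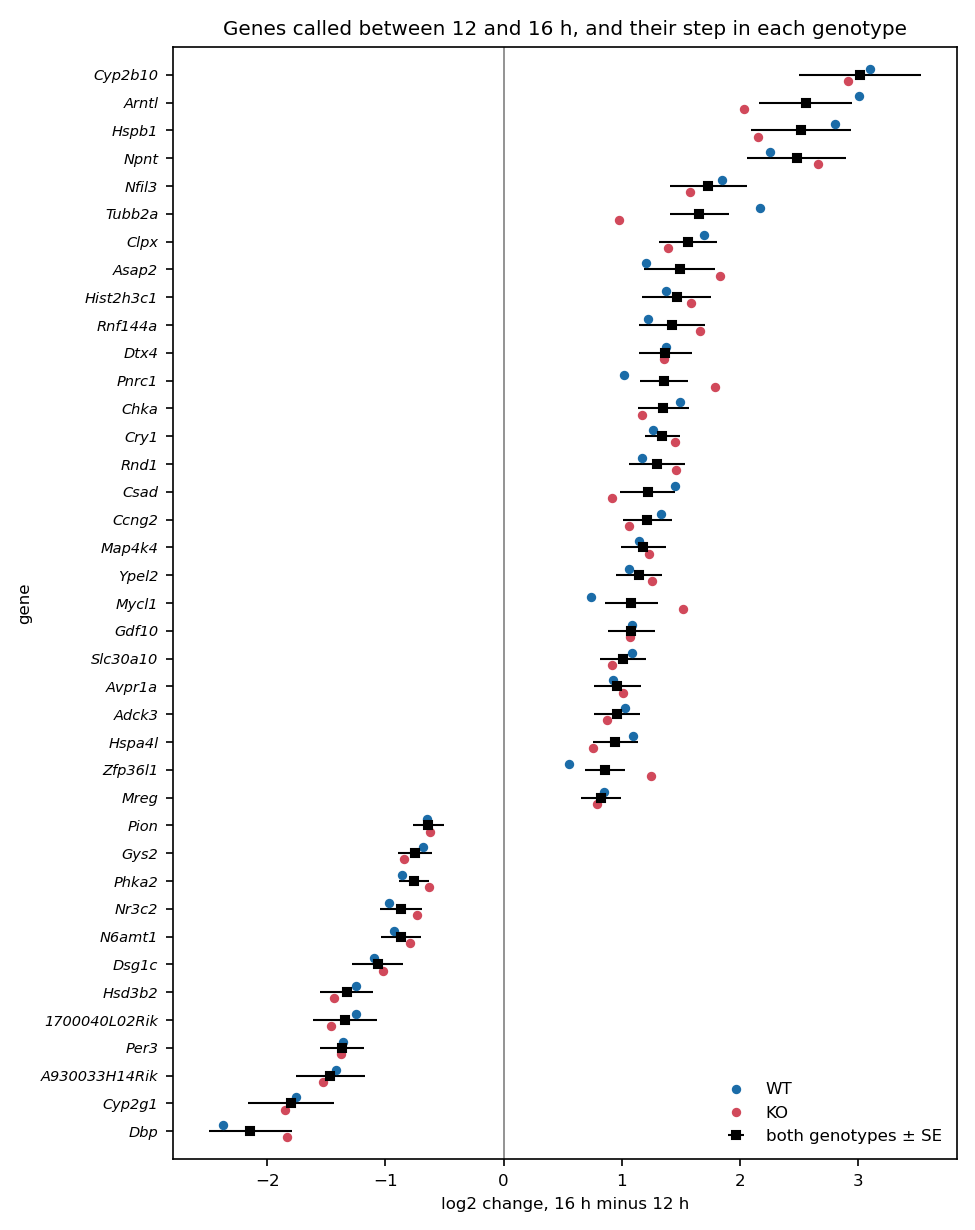
Log2 change from 12 to 16 h of each of the 39 called genes, fitted over both genotypes (black squares with bars of 1 SE) and in WT (blue) or KO (red). Genes with positive values are the 27 that rose. WT and KO values have the same sign for all 39, which the choice of genes by the fit over both genotypes favours.

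Short stretches of promoter are shown for the clock and chaperone genes that carried a motif of their known regulators, since 4 of these genes rose and Per3 fell over the step. Sequences are from RefSeq on build GRCm38.p6, 5′ to 3′ on the gene's strand, within a window from 250 bases before to 50 bases after the start, with the motif in capitals and positions counted from the transcription start.
Arntl, promoter 2 of 2, chr7:113207531-113207557, plus strand, positions 21 to 47, ROR element: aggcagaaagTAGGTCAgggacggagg
Cry1, chr10:85185079-85185144, minus strand, positions -90 to -25, E-box: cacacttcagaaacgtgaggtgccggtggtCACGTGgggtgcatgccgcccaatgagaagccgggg
Nfil3, chr13:52981040-52981081, minus strand, positions -42 to -1, ROR element read on the opposite strand: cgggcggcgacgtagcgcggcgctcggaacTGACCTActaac
Hspb1, chr5:135887772-135887859, plus strand, positions -147 to -60, heat shock elements: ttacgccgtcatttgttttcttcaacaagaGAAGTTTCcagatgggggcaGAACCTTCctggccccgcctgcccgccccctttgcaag
Per3, chr4:151044786-151044900, minus strand, positions -235 to -121, D-boxes: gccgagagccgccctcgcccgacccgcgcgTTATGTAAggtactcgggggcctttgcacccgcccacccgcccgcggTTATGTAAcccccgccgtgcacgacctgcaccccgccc

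The motifs were searched on both strands as CACGTG for the E-box, TTATGTAA or TTACGTAA for the D-box, TAGGTCA or TGGGTCA for the ROR element, GAANNTTC or TTCNNGAA for the heat shock element, and TGACGTCA for the cAMP response element. Of all 32851 promoters in the table, 7.15% held this E-box, 1.06% the D-box, 6.45% the ROR element, 15.1% the heat shock element and 1.79% the cAMP response element. The table matched 32 of the 39 genes. Among 28 promoters of the genes that rose, 1 held an E-box (Cry1), 2 a ROR element (Arntl and Nfil3), 2 a heat shock element (Hspb1 and Pnrc1) and 1 a cAMP response element (Tubb2a). Among 9 promoters of the genes that fell, 1 held D-boxes (Per3) and 1 a heat shock element (Nr3c2). The window of Dbp held none of the 5 motifs. These matches describe letters in a window and are not evidence of binding.

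Arntl is the gene that the Cre recombinase targets. In WT it stood at 0.82, 1.5, 3.4 and 2.3 CPM in the 4 libraries of 12 h and at 13.8, 21.3, 15.2, 15.1 and 15.4 CPM in the 5 libraries of 16 h. In KO it stood at 1.6, 10.0, 11.5 and 2.3 CPM at 12 h and at 19.2, 36.1 and 23.6 CPM at 16 h. The libraries labelled KO were thus not below the WT libraries at either time. The deposited count covers the whole gene (mm9 chr7:120350979-120457636) and not the floxed segment alone, so it does not check the genotype labels. Arntl rose 5.89-fold (log2 change 2.56 ± 0.39 SE, adjusted p = 0.0109), and all 8 libraries of 16 h lay above all 8 of 12 h. The 12 h values were uneven, with KO replicates 2 and 3 several-fold above the other 6.

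Cry1, whose protein represses BMAL1 and CLOCK, had the lowest p of all genes (mm9 chr10:84594447-84647799). It ran from 15.9 to 28.4 CPM at 12 h, with a median of 18.7, and from 33.8 to 67.2 CPM at 16 h, with a median of 47.4. It rose 2.54-fold (log2 change 1.34 ± 0.15 SE, adjusted p = 4.3e-04). No 16 h library reached down to the 12 h range. Nfil3, the repressor at D-boxes, ran from 4.67 to 23.7 CPM at 12 h (median 12.4) and from 26.2 to 73.4 CPM at 16 h (median 41.9). It rose 3.32-fold (log2 change 1.73 ± 0.33 SE, adjusted p = 0.0338), and its ranges also did not overlap. The call of Nfil3 was held in 8 of the 16 fits that each left out 1 library, with an adjusted p of up to 0.0894. The calls of Cry1 and Arntl were held in all 16.

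Per3, a period gene of the repressing arm, and Dbp, the activator at D-boxes, fell. Per3 ran from 44.6 to 108 CPM at 12 h, with a median of 90.8, and from 22.5 to 48.2 CPM at 16 h, with a median of 31.2. It fell 2.58-fold (log2 change -1.37 ± 0.19 SE, adjusted p = 0.0071), and 7 of the 8 libraries of 16 h lay below the lowest of 12 h. Dbp ran from 13.5 to 124 CPM at 12 h (median 51.6) and from 5.31 to 25.3 CPM at 16 h (median 12.8). It fell 4.42-fold (log2 change -2.14 ± 0.35 SE, adjusted p = 0.0122), with 5 of 8 libraries of 16 h below the lowest of 12 h. The overlap for Dbp came from KO 12 h replicates 2 and 3, the same 2 libraries in which Arntl was highest at 12 h.

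Of 20 core clock genes tested, 2 rose (Arntl and Cry1) and 1 fell (Per3), with a median change of -0.03 against 0.03 for all genes. Over all genes tested, 0.207% rose and 0.0919% fell. No other clock gene named here passed the test. Among activators, the log2 change was 1.18 for Npas2 (adjusted p = 0.280) and 0.74 for Clock (adjusted p = 0.292), and Rora was at 0.10. Among repressors, it was -1.23 for Nr1d1 (adjusted p = 0.360), -0.70 for Nr1d2 (adjusted p = 0.298), -1.56 for Gm129, which encodes CHRONO (adjusted p = 0.146), -0.69 for Bhlhe41 and 0.05 for Bhlhe40. Npas2 and Bhlhe41 were low, with means of 0.82 and 0.69 CPM over the 16 libraries. Per1 and Per2, the paralogs of Per3, had changes of -0.02 (adjusted p = 0.989) and -0.34 (adjusted p = 0.578), and Cry2, the paralog of Cry1, -0.05. The kinases that mark PER proteins for turnover, Csnk1d and Csnk1e, had changes of 0.42 and 0.38. Fbxl21, an F-box protein that binds CRY, had a change of -0.83 (adjusted p = 0.210), and Timeless was at -0.16. Leaving out any 1 library left the count of core clock calls at 3.

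Of 20 genes listed as clock outputs, 1 rose (Nfil3) and 2 fell (Dbp and Gys2), with a median of -0.14. Over all genes tested, 0.207% rose and 0.0919% fell, with a median of 0.03. The count of clock output calls ran from 1 to 3 when 1 library was left out. Tef, which acts at D-boxes like DBP, had a log2 change of -0.57 (adjusted p = 0.119) and passed with the GC correction (adjusted p = 0.030), while Hlf, of the same family, had -0.12. Wee1, a cell cycle kinase, had a change of -0.93, Por, the reductase that serves P450 enzymes, 0.71, and Ccrn4l, the deadenylase nocturnin, 0.36, and none of these passed. Gys2 ran from 231 to 391 CPM at 12 h (median 308) and from 132 to 308 CPM at 16 h (median 186). It fell 1.68-fold (log2 change -0.75 ± 0.15 SE, adjusted p = 0.0387), with 7 of 8 libraries of 16 h below the lowest of 12 h. This call was held in 5 of the 16 fits without 1 library.

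**Figure D2:**
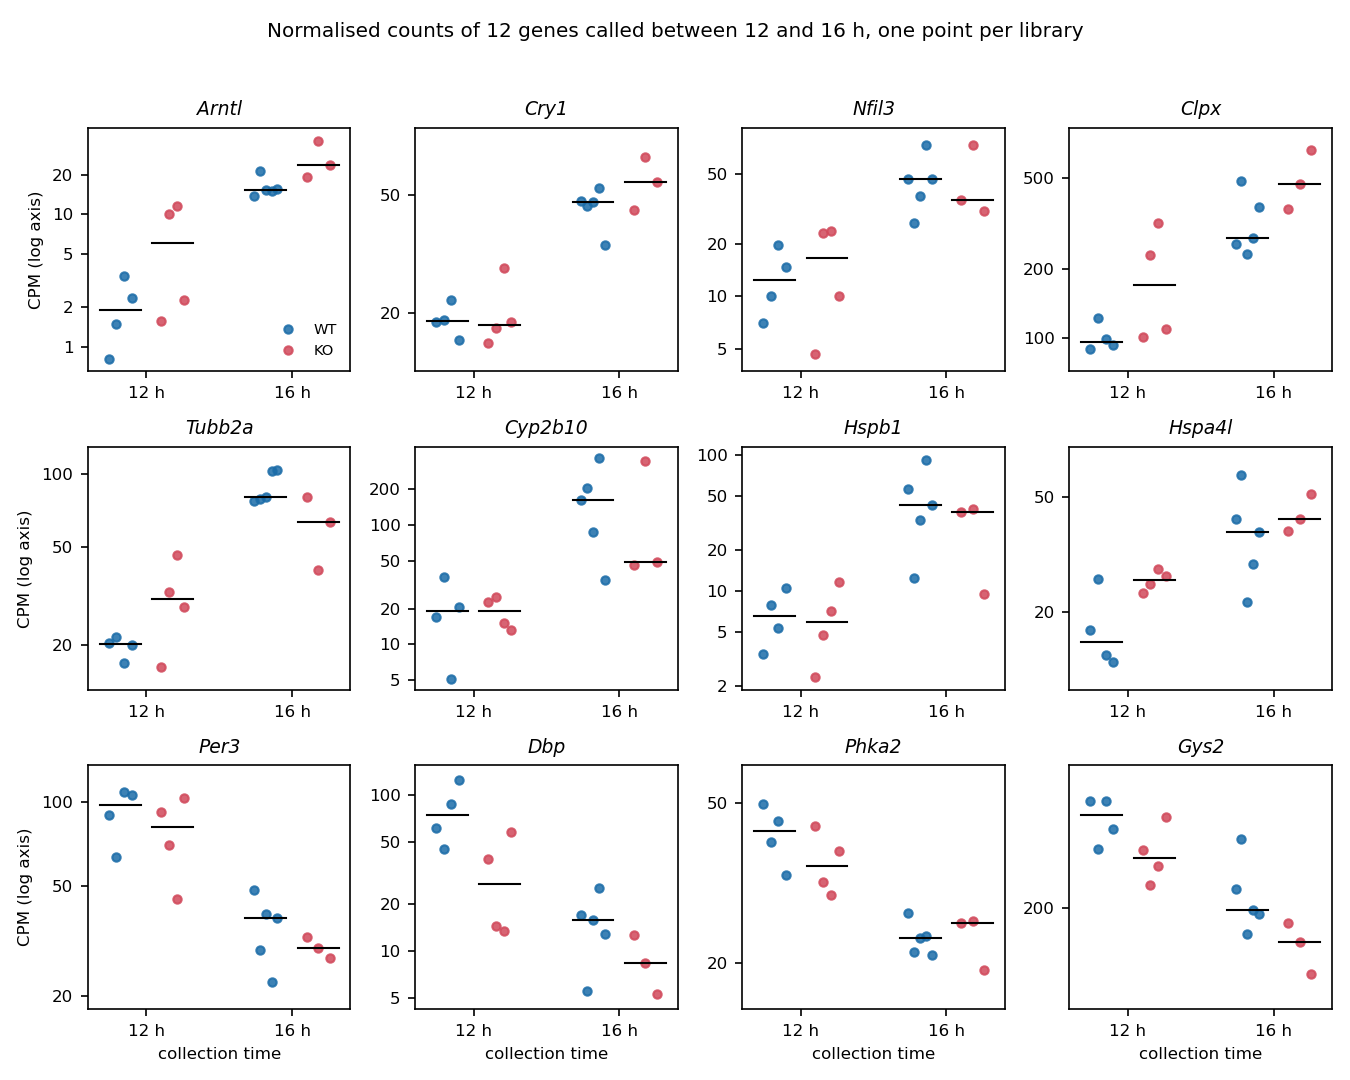
CPM of 12 called genes in each library at 12 and 16 h (log axes), with WT in blue, KO in red and a bar at the median of each group. The 16 h points of Arntl, Cry1 and Nfil3 all lie above the 12 h points and those of Phka2 all below.

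Among the other genes that rose, Pnrc1, a nuclear receptor coactivator, ran from 32.8 to 64.0 CPM at 12 h (median 46.3) and from 75.4 to 193 CPM at 16 h (median 110.2). It rose 2.56-fold (log2 change 1.36 ± 0.20 SE, adjusted p = 0.0109) with no overlap between the times. Tubb2a, a beta-tubulin whose reads can be shared with near-identical tubulin genes, ran from 16.3 to 46.6 CPM at 12 h (median 20.9) and from 40.4 to 103 CPM at 16 h (median 79.5). It rose 3.15-fold (log2 change 1.66 ± 0.25 SE, adjusted p = 0.0109), and 7 of 8 libraries of 16 h lay above the highest of 12 h. Clpx, the ATPase of a mitochondrial protease, ran from 88.8 to 318 CPM at 12 h (median 105) and from 232 to 666 CPM at 16 h (median 369.8). It rose 2.96-fold (log2 change 1.56 ± 0.25 SE, adjusted p = 0.0121). Its 12 h values were high in the same KO replicates 2 and 3 as those of Arntl.

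Cyp2b10, a P450 enzyme induced through the xenobiotic receptor CAR (Nr1i3), was the called gene with the highest fold change. It ran from 5.16 to 36.6 CPM at 12 h, with a median of 18.9, and from 34.6 to 366 CPM at 16 h, with a median of 126. It rose 8.11-fold (log2 change 3.02 ± 0.52 SE, adjusted p = 0.0124), and 7 of 8 libraries of 16 h lay above the highest of 12 h. Without KO 16 h replicate 2 the adjusted p was 0.0818. Its reads can be shared with the closely related Cyp2b genes. Of 24 genes of xenobiotic metabolism tested, Cyp2b10 was the 1 that passed, against 0.299% of all genes, and the median of that list was 0.06. Nr1i3 itself had a log2 change of -0.62 (adjusted p = 0.205), and -0.70 with the GC correction (adjusted p = 0.034). Whether the 2 changes are related was not tested.

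Enzymes of small-molecule metabolism among the genes that rose were Chka, the choline kinase of phosphatidylcholine synthesis (2.55-fold, median 27.7 to 83.2 CPM), and Csad, an enzyme of taurine synthesis (2.33-fold, median 92.9 to 233 CPM). Adck3, needed for coenzyme Q synthesis, rose 1.95-fold, and Slc30a10, a manganese exporter, rose 2.01-fold. Avpr1a, the vasopressin receptor of hepatocytes, rose 1.95-fold from a median of 24.7 to 53.5 CPM. In 7 of 8 libraries of 16 h Chka lay above its highest 12 h value, against 6 for Csad, Adck3 and Avpr1a and 4 for Slc30a10. Chka kept its call in all 16 fits without 1 library. For the other 4 the adjusted p rose to between 0.0850 (Slc30a10) and 0.137 (Adck3) in such fits.

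Signalling and growth genes that rose included Map4k4, a kinase (2.27-fold, median 10.5 to 21.3 CPM), Ccng2, cyclin G2 (2.33-fold, median 22.1 to 51.4 CPM), and Ypel2 (2.21-fold, median 15.6 to 37.7 CPM). Dtx4 and Rnf144a, both ubiquitin ligases, rose 2.58-fold and 2.68-fold. Rnd1, a small GTPase, rose 2.46-fold, Asap2, an Arf GTPase-activating protein, 2.81-fold, Gdf10, a BMP family ligand, 2.12-fold, and Mycl1, which encodes L-Myc, 2.12-fold. Zfp36l1, which binds AU-rich mRNAs for decay, rose 1.81-fold and Mreg 1.77-fold. Npnt, the matrix protein nephronectin, was low throughout, from 0.0748 to 1.61 CPM at 12 h and from 0.804 to 5.91 CPM at 16 h. It rose 5.58-fold (log2 change 2.48 ± 0.42 SE, adjusted p = 0.0122), and 5 of 8 libraries of 16 h lay above the highest of 12 h. Hist2h3c1, a histone H3 gene that has near-identical copies, rose 2.76-fold from a median of 2.47 to 7.50 CPM. Map4k4, Ccng2, Ypel2, Dtx4 and Npnt kept their calls in all 16 fits without 1 library. Rnd1 and Gdf10 kept theirs in 10, Rnf144a in 6, Asap2, Mycl1 and Hist2h3c1 in 4, and Zfp36l1 and Mreg in 3. Mycl1 did not pass with the GC correction (adjusted p = 0.0797).

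Phka2, a regulatory subunit of the kinase that activates glycogen phosphorylase, lay lower in every library of 16 h (mm9 chrX:156940098-157036810). It ran from 29.6 to 49.7 CPM at 12 h (median 39.0) and from 19.2 to 26.6 CPM at 16 h (median 23.2). It fell 1.69-fold (log2 change -0.76 ± 0.13 SE, adjusted p = 0.0122), with the highest 16 h value below the lowest of 12 h. N6amt1, a methyltransferase, fell 1.83-fold and the uncharacterised A930033H14Rik 2.76-fold, and both also had no overlap. Phka2 kept its call in all 16 fits without 1 library. N6amt1 and A930033H14Rik each kept it in 5, with adjusted p of up to 0.103 and 0.111. Across all genes tested, 9 (0.0689%) had all 8 libraries of 16 h above all 8 of 12 h and 9 (0.0689%) had them all below. Among these 18 were 4 of the 27 genes that rose and 3 of the 12 that fell.

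The remaining genes that fell were of mixed function. Hsd3b2, of the 3-beta-hydroxysteroid dehydrogenase family, whose members are closely alike in sequence, fell 2.51-fold from a median of 41.4 to 19.3 CPM. Nr3c2, the mineralocorticoid receptor, fell 1.83-fold from a median of 12.5 to 6.67 CPM. Cyp2g1, a P450 best known from olfactory tissue, fell 3.48-fold from a median of 6.95 to 2.73 CPM. Dsg1c, a desmoglein of cell junctions, fell 2.09-fold, Pion, which encodes the gamma-secretase activating protein, 1.56-fold, and 1700040L02Rik 2.53-fold. Hsd3b2 kept its call in all 16 fits without 1 library, and these other 5 genes kept it in 3 to 5.

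Heat shock genes are regulated through heat shock elements and follow body temperature in liver. Of 20 heat shock and cold response genes tested, 2 rose and none fell, 18 had a positive change, and the median was 0.42. Over all genes tested, 0.299% were called, 54.3% had a positive change and the median was 0.03. Some lists without a call were also mostly positive, such as insulin and feeding response (18 of 21) and fatty acid and triglyceride synthesis (16 of 19). Others were not, such as interferon response (8 of 20). Hspb1, a small heat shock protein, ran from 2.34 to 11.7 CPM at 12 h (median 6.25) and from 9.55 to 91.8 CPM at 16 h (median 38.7). It rose 5.73-fold (log2 change 2.52 ± 0.43 SE, adjusted p = 0.0122), and 7 of 8 libraries of 16 h lay above the highest of 12 h. Hspa4l, of the HSP110 family, ran from 13.5 to 28.3 CPM at 12 h and from 21.8 to 59.8 CPM at 16 h. It rose 1.93-fold (log2 change 0.95 ± 0.19 SE, adjusted p = 0.0455), and this call was held in 3 of the 16 fits without 1 library.

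Other chaperones had positive changes that did not pass, at 0.78 for Hspa8 (adjusted p = 0.057), 0.97 for Hsph1 (adjusted p = 0.087), 0.98 for Hsp90aa1 (adjusted p = 0.177) and 2.10 for Hspa1b (adjusted p = 0.173). Hspa8, the constitutive HSP70, ran from 1040 to 2273 CPM at 12 h and from 1851 to 3242 CPM at 16 h, with 7 of 8 libraries of 16 h above the highest of 12 h. The negative changes on this list were those of the cold-induced RNA-binding genes, at -0.73 for Rbm3 (adjusted p = 0.146) and -0.62 for Cirbp (adjusted p = 0.282). With the GC correction 4 of the 20 rose and 2 fell. When 1 library was left out the number of calls on this list ran from 1 to 4. The list's median was 0.71 in WT and 0.13 in KO, a difference that was not tested.

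**Figure D3:**
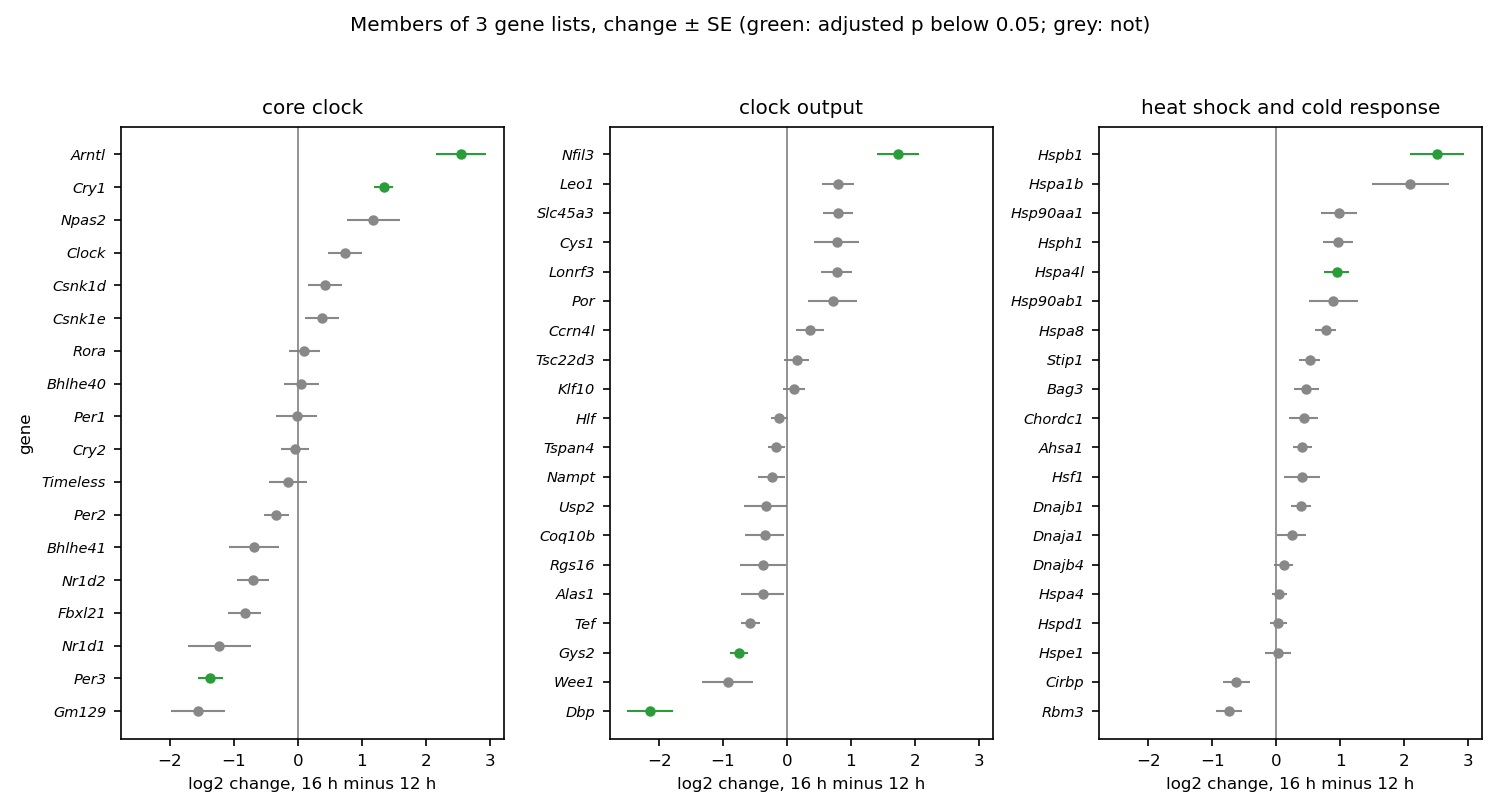
Log2 change from 12 to 16 h of members of the core clock (18 shown), clock output (20) and heat shock and cold response (20) lists (points with bars of 1 SE), in green where the adjusted p was below 0.05 and in grey otherwise. The clock lists spread to both sides of 0, and 18 of the 20 heat shock and cold response genes lie above it, against 54.3% of all genes tested.

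Calls occurred in 4 of the 27 lists. The other 23, which held 342 tested members between them, had no call. Their medians ran from -0.38 to 0.71. The highest was that of stellate cell and fibroblast markers, where all 10 had a positive change, and it was 0.50 with the GC correction. All tested markers were also positive for Kupffer cells and macrophages (12), endothelium (10) and red blood cells (5), against 54.3% of all genes. On the other marker lists some members were negative, among them 5 of the 8 hepatocyte markers (median -0.20). Des, desmin of stellate cells, had the lowest p of the stellate cell and fibroblast markers. It ran from 3.15 to 4.58 CPM at 12 h and from 4.61 to 9.18 CPM at 16 h (log2 change 0.65, adjusted p = 0.116). The summed CPM of these markers ran from 152 to 578 at 12 h and from 319 to 767 at 16 h, so the ranges overlapped. In bulk tissue a change in the number of cells of a type and a change in RNA per cell cannot be told apart.

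Of the 23 lists without a call, 14 were lists of function and not of cell type markers. Their members of lowest p did not pass, although Cdkn1a did with the GC correction (adjusted p = 0.033). Cdkn1a, the p21 cell cycle inhibitor, had a log2 change of 2.19 (adjusted p = 0.074). It ran from 3.84 to 25.5 CPM at 12 h and from 5.06 to 126 CPM at 16 h. Among the others, the log2 change was 1.05 for the stress factor Atf3 (adjusted p = 0.090) and 0.80 for the lipid droplet protein Plin5 (adjusted p = 0.096). For Tm7sf2, of cholesterol synthesis, it was 0.73 (adjusted p = 0.119), for Abcg5, a sterol exporter, -0.64 (adjusted p = 0.195), for Acacb, acetyl-CoA carboxylase 2, 1.02 (adjusted p = 0.243) and for Ppp1r3c, a glycogen-targeting subunit, 0.89 (adjusted p = 0.229). Ddx58, the RNA sensor RIG-I, had -0.59 (adjusted p = 0.215). The red blood cell markers summed to between 25.5 and 319 CPM at 12 h and between 95.2 and 443 CPM at 16 h. The lymphocyte and neutrophil markers reached 1238 CPM in 1 library of 16 h, where Ighm alone held 15032 counts, against a median of 20.4.

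The step was then taken within each genotype. All 39 called genes had the same sign in WT and in KO, and the median size of their change was 1.22 log2 units in WT and 1.36 in KO. These genes were chosen by the fit over both genotypes, which favours a shared sign. Their agreement is therefore no test of whether the step was shared. In WT alone 1 gene passed (0.00766%), Tubb2a, with a log2 change of 2.17 ± 0.28 SE (adjusted p = 0.0071), and 710 had an unadjusted p below 0.05. In KO alone 2 genes passed (0.0153%), Cry1 at 1.45 and Pnrc1 at 1.79 ± 0.28 SE (adjusted p = 0.0429), and 600 had an unadjusted p below 0.05. These counts do not compare the genotypes, for which the interaction was fitted. It gave 0 calls (0%) by edgeR and also by DESeq2, with 118 genes at an unadjusted p below 0.05 by edgeR. The unadjusted counts are out of 13059 genes tested, and chance alone gives a rate of 0.05. The KO and interaction counts lay below that rate and the WT count close to it. Among the 39 genes the median SE of the interaction was 0.42 log2 units, which sets the precision of each such comparison.

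The interaction of lowest p among the called genes was that of Tubb2a, whose step was smaller in KO by 1.19 ± 0.40 SE log2 units (KO minus WT -1.19, adjusted p = 0.999969). For Arntl the step was 3.01 in WT and 2.04 in KO, for Per3 -1.36 and -1.38, for Dbp -2.38 and -1.83, for Hspb1 2.80 and 2.15, and for Cyp2b10 3.10 and 2.91. Over all genes with at least 1 CPM, the interactions of lowest p were those of Egr1 (WT -1.46, KO 1.59), Orm2 (WT -1.87, KO 0.41), Lepr (WT -0.31, KO 3.29), Hspa1b (WT 3.34, KO 0.53) and Igfbp1 (WT 0.81, KO 4.74). None passed (adjusted p = 0.999969 for each). Egr1 is an immediate early gene, Orm2 an acute phase protein, Lepr the leptin receptor and Igfbp1 an insulin-repressed binding protein. Lepr stood at 516 CPM and Igfbp1 at 3766 CPM in KO 16 h replicate 2 alone. The other 16 h libraries reached at most 32.1 and 311 CPM, and the 12 h libraries at most 39.0 and 237 CPM.

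The step was placed in the day by the mean over both genotypes at each of the 6 times. Of the 27 genes that rose, 13 had their highest mean at 0 h, 8 at 16 h and 6 at 20 h, and 14 had their lowest at 12 h. Of the 12 that fell, 6 had their highest mean at 8 h and 5 at 12 h, and 6 had their lowest at 0 h and 5 at 20 h. The genes were chosen by their step from 12 to 16 h, so the places of these times in the counts were partly set in advance. Such counts were not made for all genes. Mean Arntl was 34.7 CPM at 0 h, 15.3 at 4 h, 2.91 at 8 h, 4.18 at 12 h, 20.0 at 16 h and 32.2 at 20 h, with the step in question on its climb. Mean Cry1 was already above its 8 h low of 8.70 CPM at 12 h (19.6) and was 49.3 at 16 h and 51.4 at 20 h. Mean Dbp was highest at 8 h, at 115 CPM, and went from 55.5 at 12 h through 12.9 at 16 h to 2.54 at 0 h. Mean Per3 was 87.9 CPM at 8 h, 84.6 at 12 h, 33.5 at 16 h and 3.14 at 0 h.

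Mean Hspb1 was 7.32 CPM at 4 h, 5.41 at 8 h and 6.65 at 12 h and was 40.5 at 16 h, 34.0 at 20 h and 19.4 at 0 h. Mean Cyp2b10 was 8.68 CPM at 8 h, 19.5 at 12 h, 162 at 16 h and 119 at 20 h. Mean Gys2 was highest at 12 h, at 316 CPM, and was 196 at 16 h and 152 at 20 h. These means place the values and carry no test.

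**Figure D4:**
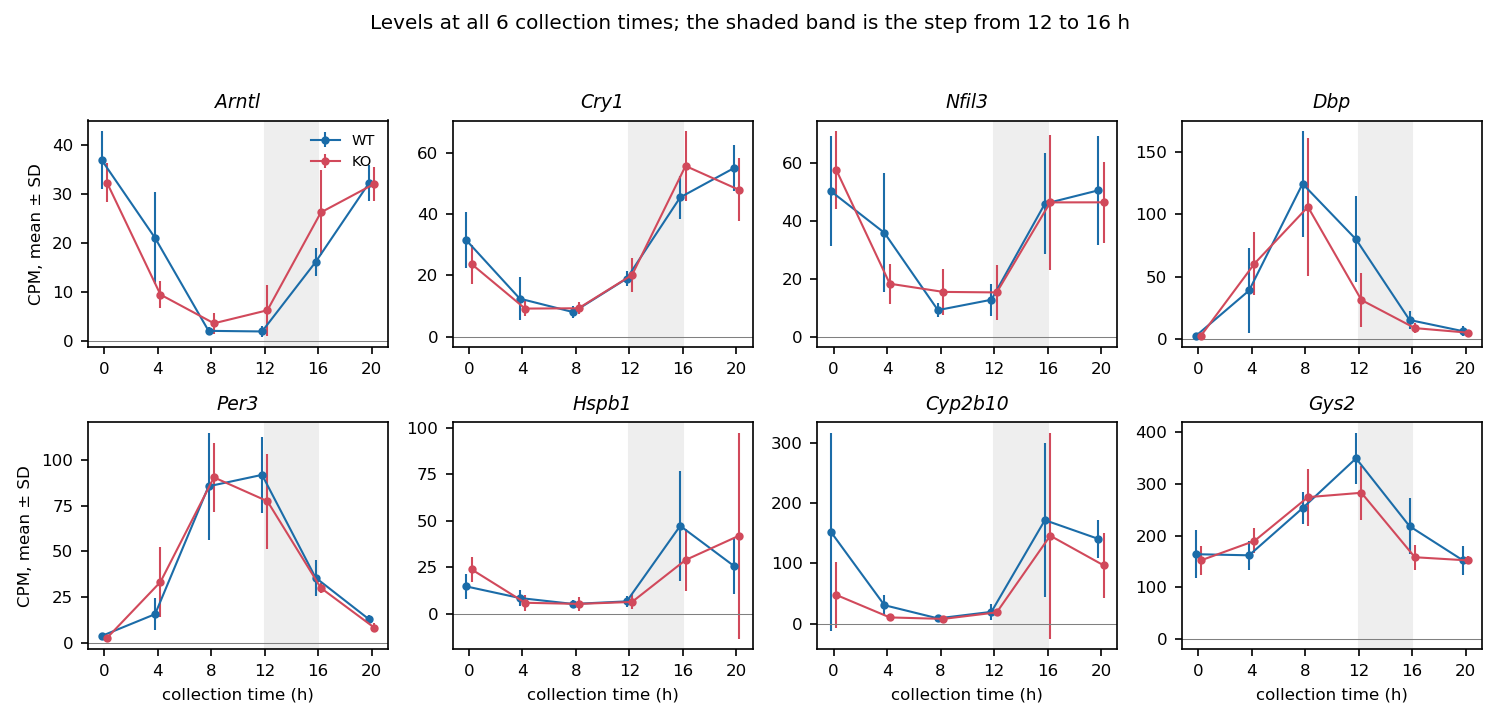
Mean CPM ± SD of 8 called genes in WT (blue) and KO (red) at the 6 collection times, with the step from 12 to 16 h shaded. Arntl, Cry1, Nfil3, Hspb1 and Cyp2b10 climb across the shaded step, and Per3, Dbp and Gys2 decline.

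The count of 39 calls depended on single libraries. Without WT 16 h replicate 2 it was 114 and without KO 16 h replicate 3 it was 79. Without 1 of the other libraries it ran from 17 to 44, and it was under 26 without WT 12 h replicate 1 (17), 3 (25) or 4 (19), WT 16 h replicate 1 (19), 3 (24), 4 (19) or 5 (19), KO 12 h replicate 1 (18) or 4 (18), and KO 16 h replicate 1 (25) or 2 (20). No called gene changed sign in any of these fits, 16 of the 39 were called in every one, and the other 23 were called in 3 to 15 with adjusted p reaching 0.140. Cry1, Per3, Pnrc1, Tubb2a, Hspb1, Phka2, Chka, Ccng2, Ypel2 and Hsd3b2 were called in these 16 fits and also in all 13 other settings run on both genotypes. Within the 12 h side, KO replicate 3 was the highest library for 14 of the 27 genes that rose and among the 2 lowest for 11 of the 12 that fell. Within the 16 h side, KO replicate 2 was the highest for 12 of the 27 genes and KO replicate 3 for 8.

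**Figure D5:**
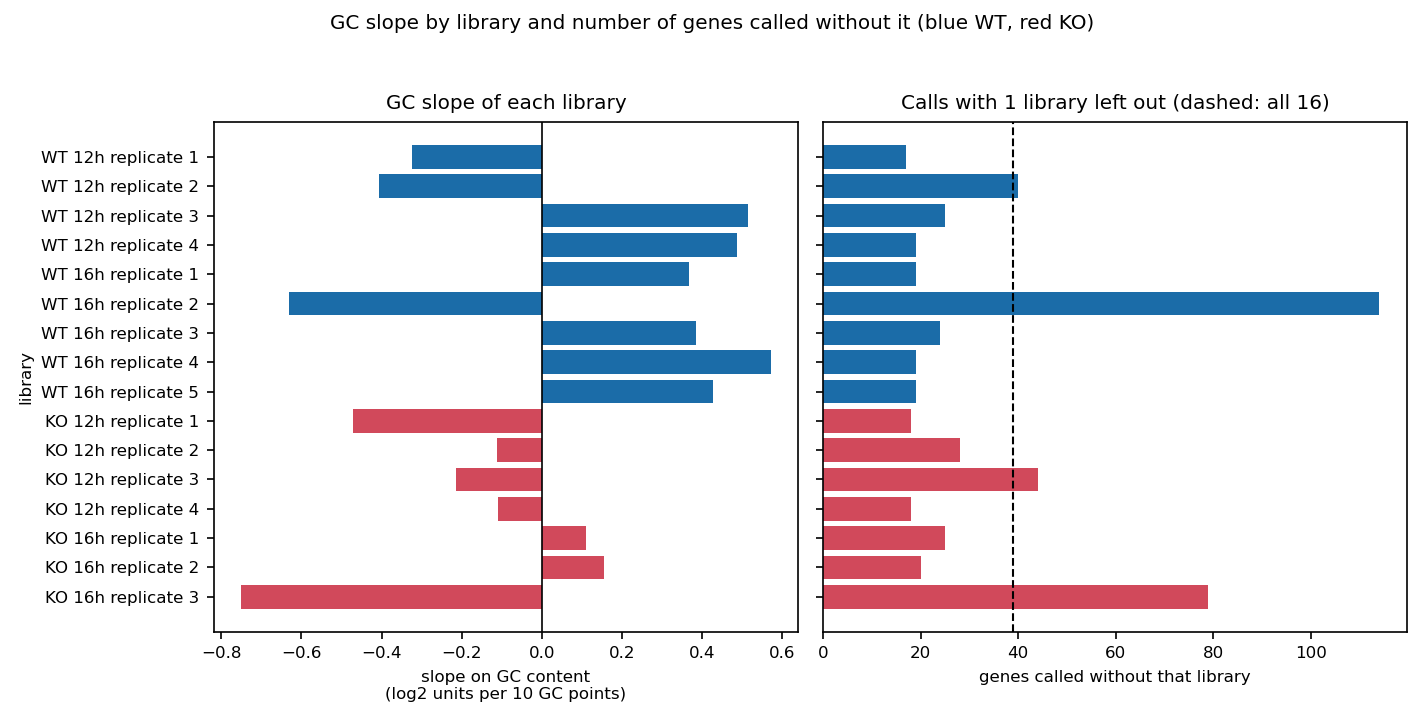
Slope of log2 expression on transcript GC content in each of the 16 libraries (left) and the number of genes called when that library was left out (right, with a dashed line at the 39 of all libraries), WT in blue and KO in red. The counts without WT 16 h replicate 2 (114) and KO 16 h replicate 3 (79) lie farthest above the line.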

How the data were processed

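Liver poly-A RNA libraries of single mice were sequenced by the authors on an Illumina HiSeq 2000, 2 libraries per lane, per the labels' protocols. The deposited values are whole-number counts per gene. CASAVA, STAR 2.4.1d and build mm9 are named in the submitters' processing notes, and the step that assigned reads to genes is not stated in the sources used here. The totals of the deposited counts were nearly equal, from 12841969 to 13007696 per library without Alb. The Alb row was left out, since its values move in large fixed steps unlike raw counts.

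Groups came from the genotype and collection time labels. Members, gene lists and tests were chosen with earlier results of these data known. Counts of 22353 genes were filtered (at least 10 counts in enough libraries for the smallest group and 15 in total, which left 13059), scaled by TMM and tested with edgeR 4.0.16 (R 4.3.3), with genotype and time as additive terms. A fit of the 4 group means gave the step in each genotype and the interaction. The adjusted p threshold was 0.05 and standard errors came from the F statistic. Displayed CPM were scaled by TMM over all 48 libraries. Named genes were Arntl, all tested core clock and clock output genes, the 10 largest changes each way among calls that averaged 1 CPM or more and had an established symbol, the leading members of each of the other lists (27 in all) and the 5 lowest interaction p values. Results for 2 of the core clock genes are not reported here. The other 17 called genes, the genes beside the leading one of a list and those named as passing with the GC correction were added after their values were seen.

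Alternatives were other scaling and filters, a GC offset (loess span 0.3, with GC known for 97.9% of genes), a replicate block, all 48 libraries, DESeq2 1.42.0, limma 3.58.1, single genotypes and each library left out. No library pair agreed within sampling noise (lowest chi-square per degree of freedom 25.0). The test was tried on simulated counts first. Promoters were taken from RefSeq on GRCm38.p6 and gene positions from the deposited table on mm9, which were not combined.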

Additional observations from a re-analysis of the deposited data

Results flagged for a closer look

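In groups of 4 or 5 libraries, a gene stood out when its highest or lowest library lay far from the others relative to the group's range (Dixon's criterion). This held for 19 of 303 gene and group pairs (6.27%), and chance gives about 1 in 20. The 3 KO libraries of 16 h were too few for it.

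WT 16 h replicate 2 held 6 of the 19. It was low for Per1 (25.9 CPM against 69.9 to 85.7 in the others), Cry2 (28.2 against 62.1 to 72.7), Csnk1d (36.2 against 87.8 to 94.3) and Leo1 (6.61 against 14.4 to 17.0), and high for Clock (101 against 28.8 to 41.2) and Arntl (21.3 against 13.8 to 15.4). Without this library 3 core clock genes were called, as with it.

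KO 12 h replicate 3 held 4. It was high for Npnt (1.61 CPM against 0.225 to 0.452), Creld2, an endoplasmic reticulum stress gene (32.1 against 16.8 to 17.3), and Plin5 (173 against 117 to 123), and low for Dkc1, the pseudouridine synthase dyskerin (15.5 against 19.0 to 19.5). Of the other KO 12 h libraries, replicate 2 was low for Bhlhe41 (0.167 CPM) and replicate 4 high for Per2 (88.8).

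In WT at 12 h, replicate 1 was high for Cyp2g1 (16.6 CPM), replicate 2 low for 1700040L02Rik (1.27) and high for Plin5 (225), replicate 3 high for Zfp36l1 (149), and replicate 4 high for Creld2 (31.2), Cxcl1 (10.2) and Tspan4 (129.9).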

How the results depend on the processing

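No called change reversed in any setting run, but the core clock median, -0.03, ran from -0.19 to 0.22 over the settings and the clock output median, -0.14, from -0.18 to 0.05. The 39 calls of the step stayed within 1.5 times (36 to 45) with other scaling, other filters, Alb kept, and the GC offset fitted together with the replicate block. They were 17 with the replicate block, 19 without the genotype term, 98 with the GC offset, 207 with DESeq2 (116 rose, 91 fell), 279 with all 48 libraries (159 rose, 120 fell) and 1249 with limma-voom and library weights. WT libraries only gave 2 and KO libraries only 0. The fits with the GC offset were not among the planned settings. Leaving out WT 16 h replicate 2 with KO 16 h replicate 3, chosen after seeing the data, gave 1011 (614 rose, 397 fell). All 39 genes remained called with DESeq2, with all 48 libraries, with limma-voom and without that pair. Leaving out 1 library gave 17 to 114. The cause of these differences was not tested.

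The single WT call became 2 with totals only, 0 with the replicate block, 8 with the GC offset, 30 with all 48 libraries, 38 with DESeq2, 7 without that pair and 0 to 4 without 1 library. The 2 KO calls became 0 without a filter, with Alb kept, with the replicate block, with the GC offset and block, and without that pair, 24 with all 48 libraries, 16 with DESeq2 and 0 to 4 without 1 library. The interaction had 0 calls in every setting run, with 81 to 349 genes at an unadjusted p below 0.05, a share under 0.05 of those tested. Deviations from the group means correlated at r from -0.55 to 0.73 between libraries of the same replicate number, and above 0.1 in 9 of 21 pairs. Differently numbered pairs were not compared, so these values do not show whether replicate numbers pair the mice. Library totals were nearly equal, and the effect of depth on the calls was not tested.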

Other observations

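Some genes missed the threshold without the GC correction and passed with it, and 3 of them, named after their values were seen, are described here. Gldc, the glycine decarboxylase of the mitochondrial glycine cleavage system, ran from 40.9 to 127 CPM at 12 h and from 96.8 to 296 CPM at 16 h. Its log2 change was 1.20 ± 0.25 SE (adjusted p = 0.0515) and 1.16 ± 0.18 SE with the correction (adjusted p = 0.0047), by edgeR. Cnnm4, a magnesium transporter, ran from 2.26 to 5.82 CPM at 12 h and from 4.19 to 12.4 CPM at 16 h (log2 change 1.08, adjusted p = 0.0911, and 0.0107 with the correction). Pcsk4, a proprotein convertase, ran from 17.0 to 71.3 CPM at 12 h and from 7.35 to 24.4 CPM at 16 h, with a log2 change of -1.05 (adjusted p = 0.0951, and 0.0047 with the correction). Other settings were not examined for these 3 genes.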
